A study of Drosophila melanogaster with 9 samples.

Results

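The baseline of this experiment was the expression profile of brat-null larval brains that had not been shifted to the inducing temperature. These are the 3 libraries labelled 0 hr, of 9 libraries in the series, chosen by their time label alone. The larvae were brat11/Df(2L)Exel8040 and carried 2xTub-Gal80ts, Wor-Gal4 and UAS-insb, so the 0 hr brains held the whole induction system. They were raised at 25 °C for 5 days, whereas the 9 hr and 18 hr larvae of the same genotype spent the last 9 or 18 hours at 33 °C. The study's text also describes an Ase-Gal80 element that limits the driver to type II neuroblasts. Each library came from a pool of whole dissected brains, sequenced as paired-end poly-A RNA, and the 3 replicates are described as biological triplicates. The 9 hr and 18 hr libraries are used below only for values set side by side.

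Neuroblasts are the stem cells of the fly brain. A type I neuroblast divides to renew itself and to make a ganglion mother cell, which divides into neurons or glia. A type II neuroblast makes immature intermediate neural progenitors (INPs) that mature, divide several times and produce ganglion mother cells of their own. Brat is a translational repressor that is passed to the newborn immature INP. In its absence these newborn immature INPs revert to type II neuroblasts and fill the brain with supernumerary stem cells. The UAS-insb transgene encodes Insensible, a transcriptional co-repressor that the study used to drive such neuroblasts to differentiate.

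The 3 libraries held 34148721, 29389923 and 37109356 counts over 14560 listed genes. Levels of different genes are compared as TPM, counts divided by the merged exon length of the gene and scaled to the same total in each library. Libraries are compared as CPM, counts scaled to the library size without regard to gene length, with trimmed-mean scaling. Ensembl annotation of the dm6 assembly gave lengths and current symbols. A total of 11086 symbols were current, 3369 were older names, and 105 had no match and held 0.261% of the counts. The replicates differed by more than counting noise, with a median chi-square per gene between 2.32 and 3.58 for the 3 pairs. Their biological coefficient of variation was 0.209 over 9769 genes, a spread relative to the mean that is left after counting noise. With a single group there was no comparison to test, so no p-value is given.

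Libraries that stood apart in some gene groups are described first because several levels rest on them. Replicate 3 had the highest Hsp70 and Hsp68 levels and the lowest levels of tracheal, blood cell and ring gland markers. Replicate 2 was far above the others in a group of peritrophic matrix and mucin genes and had the highest levels of several ecdysone-responsive genes. Replicate 1 had the highest larval serum protein levels. None of the listed neuroblast, type II, INP, ganglion mother cell or cell cycle genes at 10 CPM or more varied 2-fold between the libraries, which 3.69% of all such genes did. In RNA from whole brains, fewer cells of a type and less RNA per cell cannot be told apart.

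Of the genes with a known length, 9132 (63.2%) reached 1 TPM in all 3 libraries, and 10177 did so in at least 1 library. The median level of the 9132 expressed genes was 33.5 TPM. A level of 100 TPM in all 3 libraries was reached by 1486 genes and a level of 1000 TPM by 123 genes. Counts were concentrated in few genes: the 100 most abundant took 24.4%, 24.3% and 24.9% of the counts, and the 1000 most abundant took 61.0%, 60.8% and 61.9%. Protein-coding genes gave 96.0%, 96.0% and 94.8% of the counts, and genes annotated as non-coding RNA gave 3.55%, 3.45% and 4.68%. The plot of level against rank shows the 3 libraries following nearly the same curve.

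**Figure D1:**
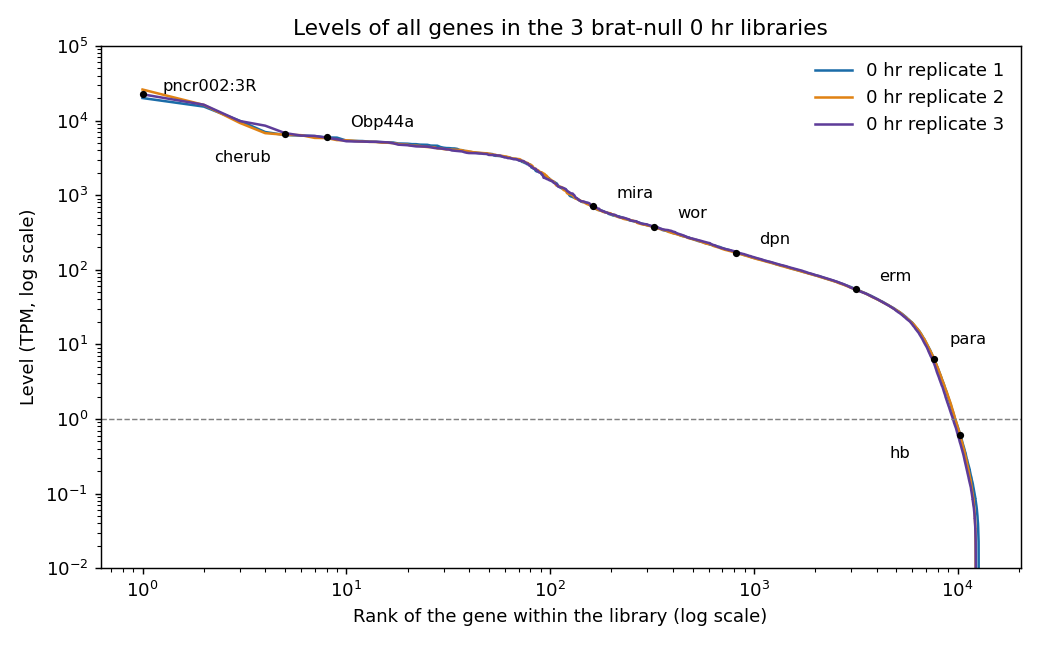
Level of every gene (TPM, log scale) against its rank within the library (log scale), with 1 line per 0 hr replicate; black points are means over the 3 libraries and the dashed line is 1 TPM. The lines lie over each other from pncr002:3R at 22851 TPM down to genes under 1 TPM such as hb.

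The RNA with the most counts was the long non-coding RNA cherub, listed as CR43283 and located on chromosome 3R from 11247631 to 11256123. cherub is known from brat tumours, where it supports tumour growth. It held 842015, 654873 and 1305256 counts, which were 2.47%, 2.23% and 3.52% of each library. Its levels were 5932, 5234 and 8536 TPM, with replicate 3 the highest and a 1.62-fold range in CPM. On the TPM scale cherub ranked 5. Replicate 3 also had the largest share of non-coding counts, and cherub gave most of that class in each library.

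The highest level per length belonged to pncr002:3R, a putative non-coding RNA also on 3R, with 20028, 26045 and 22479 TPM. RpL41, the smallest ribosomal protein, followed with 15390, 16189 and 16290 TPM. The elongation factor gene eEF1alpha1, listed as Ef1alpha48D, had 9926, 9311 and 9855 TPM. Most of the other leading genes encoded ribosomal proteins. Among the 91 genes listed for cytosolic ribosomal proteins, 88 reached 1 TPM in all libraries, their median was 3460 TPM, and their summed levels were 300700, 300300 and 293200 TPM. RpS27A, RpL14, RpL27A, RpL23 and RpL36 were the next 5 after RpL41 and ranged from 5334 to 6797 TPM over the libraries. All 75 mitochondrial ribosomal protein genes were expressed at a much lower median of 92.0 TPM.

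Obp44a was the only gene outside the translation machinery and the non-coding class among the 10 most abundant, with 7014, 5827 and 5097 TPM. It encodes a protein of the odorant-binding family, and its exons overlap those of Pabp2 over 19.1% of their length, so part of its count is uncertain. The cytoskeletal genes alphaTub84B and betaTub56D reached 4732 and 4156 TPM on average. Hsc70-4, the constitutive chaperone, had 4598, 4063 and 4387 TPM. None of the 15 genes in a reference list of housekeeping genes varied 2-fold between libraries, and few of all genes at 10 CPM or more did (3.69%).

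Neuroblast genes were abundant. All 20 genes of a self-renewal list reached 1 TPM in every library, with a median of 93.7 TPM against 33.5 TPM for all expressed genes. mira, which encodes the scaffold that carries fate determinants into the daughter cell, had 749.8, 659.3 and 707.9 TPM, a mean of 705.7 ± 45.3 TPM (SD, n = 3). wor, a Snail-family factor of neuroblasts, had 376.8, 367.7 and 389.2 TPM. The 3 libraries lay close together for both genes.

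dpn, the bHLH repressor that marks neuroblasts and INPs, had 186.9, 160.6 and 161.1 TPM. Of its exon length, 59.3% is shared with an antisense RNA, and reads of the pair cannot be told apart without strand. Other members were grh at 113.2 ± 10.8 TPM, insc at 96.1 ± 13.8 TPM, klu between 77.0 and 86.5 TPM, and the Notch receptor gene N between 88.6 and 98.9 TPM. The lowest member was nerfin-2, with a mean of 2.58 TPM. Of the 19 members at 10 CPM or more, 0 varied 2-fold between libraries. Only 3.69% of all genes at that level did so, and the counts of 0 given here and for the lists below are near that share.

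The type II identity genes were present at similar levels. tll, an orphan nuclear receptor gene needed for type II neuroblasts, had 175.3, 162.6 and 147.9 TPM. Sp1 had 110.3 ± 5.78 TPM, pnt, an ETS factor gene of the type II lineage, 101.9 ± 2.76 TPM, and btd 73.6 ± 6.90 TPM. Six4 and Optix were between 76.3 and 101.6 TPM in the 3 libraries. oc was the lowest of the 7 genes at 7.04 TPM. None of the 7 varied 2-fold. Set side by side and not tested, tll was at 65.6 to 85.9 TPM in the 6 shifted libraries and mira at 447.8 to 639.2 TPM.

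INP genes were expressed at intermediate levels. erm, which encodes a zinc finger protein that locks INP identity, had 55.2, 54.7 and 53.5 TPM, a mean of 54.5 ± 0.841 TPM. ase, a proneural gene that type II neuroblasts lack and type I neuroblasts and INPs express, had 61.3, 65.5 and 73.9 TPM. The temporal INP factors D, opa, ham and ey had means between 32.3 and 50.1 TPM. The 3 most abundant of the 12 genes were jim, toy and ase. All 12 were expressed, with a median of 52.3 TPM, and 0 of 12 varied 2-fold.

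The genes that check the labels were read next. insb, listed as CG6520, had 63.2, 60.9 and 68.8 TPM in these unshifted brains. The table does not separate the endogenous gene from the transgene. brat RNA was present at 35.6, 39.7 and 43.4 TPM, and RNA counts do not show whether a working protein was made. w, the usual marker gene of fly transgenes, had 81.6, 74.5 and 78.0 TPM. The 3 libraries were alike for all 3 genes.

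Cell cycle genes were high as a group. All 36 members of the list were expressed, with a median of 179 TPM, and 0 of 36 varied 2-fold. PCNA, the DNA polymerase clamp, had 798.4, 780.7 and 825.0 TPM. geminin, the licensing inhibitor, reached 482.6 ± 12.9 TPM and CycA, a mitotic cyclin gene, 376.5 ± 31.5 TPM. All 12 Mcm and Orc replication genes were expressed, led by Mcm7 at 287.9 TPM. In 27 of 36 genes replicate 3 was the highest, and in 22 replicate 2 was the lowest, against 39.8% and 34.5% of all genes at 10 CPM or more. The summed levels were 7713, 7452 and 8215 CPM.

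Temporal genes of neuroblasts were mixed. cas, an early temporal factor, had 283.1, 227.8 and 289.3 TPM. Syp and Imp encode RNA-binding proteins that mark late and early neuroblasts respectively. Syp had 215.9, 205.1 and 254.7 TPM and Imp 63.3, 44.8 and 63.8 TPM. Syp was thus the higher of the pair in each library. br, a zinc finger gene of the ecdysone response, was between 96.7 and 107.8 TPM. hb, the first factor of the embryonic series, was at 0.663, 0.543 and 0.602 TPM. Of the 14 genes, 12 were expressed and 0 of the 9 at 10 CPM or more varied 2-fold.

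Notch pathway genes were all expressed, 27 of 27, with a median of 60.2 TPM. The co-repressor gene gro had the highest mean of the list, between 161.0 and 175.5 TPM, and spdo, which controls Notch trafficking in asymmetric division, was between 145.0 and 155.5 TPM. The 11 genes of the Enhancer of split complex, the direct Notch targets, were all expressed. E(spl)mgamma-HLH, the member known in neuroblasts, led them with 109.6, 104.0 and 118.3 TPM. Of 26 Notch pathway genes at 10 CPM or more, 2 varied 2-fold, Ser and E(spl)m2-BFM, against 3.69% of all such genes. Both were lowest in replicate 3, as were 31.7% of all genes at that level. With replicate 3 left out, 0 of 26 varied 2-fold.

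Neurons were also represented. nerfin-1, expressed in newborn neurons, had 263.4, 302.8 and 332.4 TPM, and tap 145.0, 141.6 and 153.7 TPM. elav, the pan-neuronal RNA-binding protein gene, had 102.0 ± 2.03 TPM and pros, which ends self-renewal in ganglion mother cells, 79.3 ± 5.28 TPM. Genes of the mature synapse were lower. All 20 were expressed with a median of 30.8 TPM. nSyb, the vesicle fusion protein, had 102.9, 83.6 and 95.5 TPM, and Syt1, the calcium sensor of release, 51.1, 44.6 and 49.1 TPM. The sodium channel gene para had 8.76, 4.16 and 6.21 TPM. Replicate 1 was the highest in 15 of the 20 synaptic genes and replicate 2 the lowest in 16, against 28.4% and 34.5% of all genes at 10 CPM or more. The 2 that passed the 2-fold rule, para and Shab, did so between replicates 1 and 2. Of all genes at 10 CPM or more, 3.69% passed it.

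Transmitter genes differed in level. VGlut of glutamatergic neurons had a mean of 44.7 ± 1.62 TPM and Gad1 of GABA neurons 35.03 ± 9.71 TPM. VAChT of cholinergic neurons was between 26.4 and 30.0 TPM. ple, for dopamine synthesis, was between 1.32 and 1.46 TPM, and Hdc, for histamine synthesis, stayed under 1 TPM in all 3 libraries. All 26 neuropeptide genes were expressed. Ilp2, an insulin-like peptide of a small group of brain cells, had 104.8, 62.3 and 83.4 TPM. Ms and SIFa were the next highest, between 57.1 and 74.9 TPM. Nplp2, annotated as a neuropeptide-like precursor, had 72.9, 8.47 and 2.79 TPM, with replicate 1 far above the others.

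Glia were represented by all 18 genes of their list, with a median of 39.5 TPM. Gs2, glutamine synthetase, had 211.0, 133.7 and 164.2 TPM. repo, the pan-glial homeobox gene, had 39.8, 37.1 and 43.0 TPM. wrapper, of cortex glia, had 99.1, 99.8 and 100.2 TPM. alrm, of astrocyte-like glia, had 76.0 ± 11.8 TPM. Gat (CG1732 in the table) and Gli were the 2 glial genes of 17 at 10 CPM or more that varied 2-fold. Of all genes at that level, 3.69% did. Gli was lowest in replicate 3, at 5.47 TPM against 14.5 and 18.7 TPM. The label speaks of neural stem cells, and these markers show that the RNA also came from neurons and glia.

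Optic lobe genes were expressed in 16 of 17 cases with a median of 31.1 TPM, and 0 of 15 varied 2-fold. slp2 had 89.3, 82.8 and 89.9 TPM, Optix, counted in the type II list too, 85.2, 76.3 and 78.1 TPM, and slp1 76.2, 76.0 and 69.3 TPM. Genes of a Hox and trunk identity list had a median of 3.13 TPM. Of the 11 genes, 9 reached 1 TPM in all 3 libraries, against 63.2% of all genes with a known length. Abd-B was at 0.577, 0.490 and 0.172 TPM, lab was between 0.703 and 0.796 TPM, and Antp between 5.05 and 6.99 TPM. exd, the Hox cofactor gene with broad expression, stood apart from the rest of that list at 182.0 ± 2.14 TPM. Scr had 5.60, 13.2 and 2.64 TPM and was lowest in replicate 3.

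**Figure D2:**
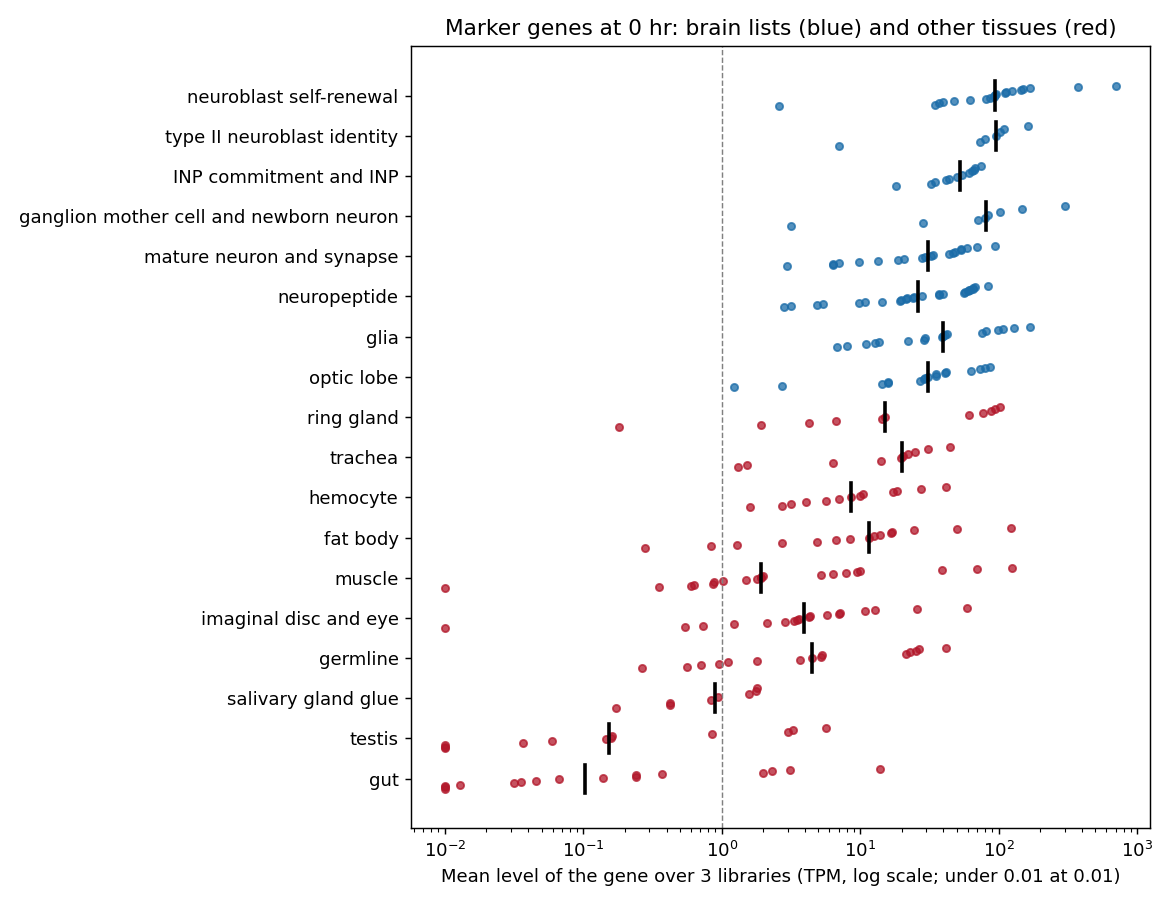
Mean level of each marker gene over the 3 libraries at 0 hr (TPM, log scale, genes under 0.01 drawn at 0.01), with 1 row per list and a black bar at the median of the list; blue rows are brain lists, red rows other tissues and the dashed line is 1 TPM. Medians run from 95.4 TPM for type II identity to 0.103 TPM for gut.

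Tissues attached to the brain were also detected, with list medians of 15.1 TPM for the ring gland and 20.2 TPM for trachea. Of all genes with a known length, 63.2% reached 1 TPM in all 3 libraries, and the counts below stand against that share. The ring gland, the endocrine organ that sits on the brain lobes, was represented by 9 of 11 genes. Its ecdysone synthesis genes phm (phtm in current annotation), sad and spok had 41.8 to 122.9, 46.0 to 130.4 and 37.0 to 104.2 TPM, and each was lowest in replicate 3. Npc1a, which carries sterol in many cells, had the highest mean of the list. Tracheal genes reached 1 TPM in 9 of 10 cases, led by verm, a chitin deacetylase of airway cuticle, with 56.5, 63.9 and 12.8 TPM.

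Blood cell genes were all above 1 TPM in at least 1 library. In all 3 libraries 9 of 13 were so, near the 63.2% of all genes with a known length. Hml, a hemocyte protein gene, had 7.61, 3.88 and 0.603 TPM. PPO2, the prophenoloxidase of crystal cells, had 59.5, 19.4 and 4.24 TPM. Larval serum protein genes of the fat body were low and uneven. Lsp2 had 26.1, 9.65 and 1.88 TPM, and Lsp1alpha 17.8, 0.537 and 1.61 TPM. FASN1, a lipid synthesis gene used in many tissues, had the highest mean of the fat body list, between 107.3 and 137.9 TPM.

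Tissues that lie apart from the brain gave mixed levels. Of 20 muscle genes, 11 reached 1 TPM in all libraries, against 63.2% of all genes with a known length. Their median was 1.93 TPM and their summed levels were 322.2, 293.6 and 247.9 TPM. Mhc, the muscle myosin heavy chain, had 1.14, 0.474 and 0.182 TPM. The actins and tropomyosin at the top of the muscle list, Act87E, Tm1 and Act57B, are expressed beyond muscle. TpnC41C, a flight muscle troponin, and ninaE, the main rhodopsin of the eye, had 0 counts in all 3 libraries. Glue genes of the salivary gland had a median of 0.888 TPM. Gut genes had a median of 0.103 TPM with 12 of 16 under 1 TPM in every library, and the digestive protease gene Jon65Aiv had 9.36 TPM in replicate 1 and 0 in the others. For a gene of 1000 exon bases, 3 counts are worth 0.178, 0.201 and 0.165 TPM in the 3 libraries, which is the level that a count of 0 allows. Those limits cover counting error only.

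Imaginal disc and eye genes reached 1 TPM in 12 of 18 cases, led by Dll at 55.7 to 62.6 TPM. Germline genes reached it in 10 of 15. Of all genes with a known length 63.2% did, so both counts are near the share over all genes. Among the germline genes, bam, a differentiation factor of germ cells, had 20.8, 22.4 and 25.6 TPM. The piRNA pathway helicase gene spn-E was at 38.7 to 44.6 TPM. vas was at 4.20 to 4.97 TPM, nanos was under 1 TPM in every library, and osk was between 0.0702 and 0.383 TPM. Of 12 testis genes, 8 were under 1 TPM in every library. The protamine genes ProtA and ProtB and the meiotic regulator gene aly had 0 counts, while can, a testis TAF, had 5.01, 5.46 and 6.68 TPM. Of 14 antimicrobial peptide genes 2 were expressed in all libraries, and Drs, drosomycin, was the highest at 6.10 to 6.59 TPM.

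In all, 948 genes (6.51%) had 0 counts in the 3 libraries, and a further 2820 had a highest count of 1 to 10. Every one of the 948 had a count in at least 1 of the other 6 libraries, so the table appears to list only genes with some count in the series. By name, 495 of the 6562 genes listed under a CG number and 228 of the 1418 under a CR number were among them. The share over all listed genes was 6.51%. Chemosensory families had larger shares at 0 counts than all listed genes. Of 36 odorant receptor genes, 11 had 0 counts and 6 reached 1 TPM, led by Or43b at 9.27 to 9.72 TPM, 40.7% of whose exon length is shared with Cul1. Of 32 gustatory receptor genes, 5 had 0 counts and 6 reached 1 TPM, led by Gr98a at 5.41 TPM. Of 44 ionotropic receptor genes, 12 had 0 counts and 5 reached 1 TPM, led by Ir62a at 8.58 TPM.

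Other sensory families were similar. Of 23 pickpocket channel genes 4 reached 1 TPM, and of 7 rhodopsin genes 2 did. The odorant-binding family was the exception in level, since 4 of 29 were expressed but Obp44a and Obp99a, the latter at 588.6 to 710.5 TPM, gave it a summed level of 7762, 6466 and 5717 TPM. Of the other 27 members, none had a mean above that of Obp99b, which had 19.6, 28.7 and 2.68 TPM.

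Among structural and secreted families, 11 of 93 cuticle protein genes reached 1 TPM, and Cpr64Ac held most of the summed level with 334.3, 380.2 and 377.3 TPM. None of 14 Osiris genes, 15 Jonah protease genes or 12 accessory gland protein genes reached 1 TPM in all 3 libraries. The chorion and vitelline membrane family had 1 of 13 at that level, Cp18. Cytochrome P450 genes were mixed, with 26 of 70 expressed and Cyp4p2 and Cyp4g15 the highest at 74.8 to 100.3 TPM. Replication-dependent histone genes give little poly-A RNA, and of 49 listed histone genes 14 were expressed, led by the variant gene His2Av at 1479, 1507 and 1543 TPM.

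Variation between replicates was read over the 7108 genes with a mean of 10 CPM or more. The median ratio of the highest to the lowest library was 1.12, and 5251 genes (73.9%) stayed within 1.2-fold. A ratio of 2 or more was found in 262 genes, 3.69% of those read, and 72 genes varied 5-fold or more. Replicate 3 was the lowest in 166 of the 262 genes (2.34% of those read) and the highest in 44 (0.619%). Replicate 2 was the lowest in 37 (0.521%) and the highest in 143 (2.01%), and replicate 1 was the lowest in 59 (0.83%) and the highest in 75 (1.06%). In 108 genes replicate 3 was at least 2-fold below both others. With replicate 3 left out, 118 genes varied 2-fold between replicates 1 and 2. Left out in turn, replicate 2 gave 161 genes and replicate 1 gave 195.

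**Figure D3:**
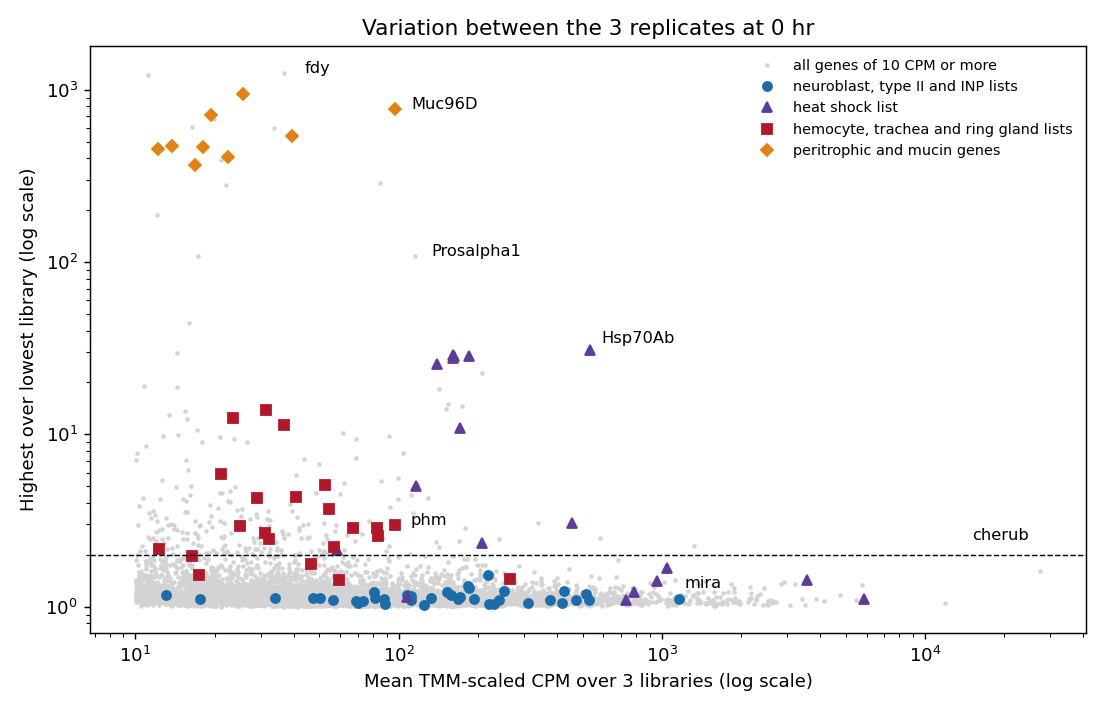
Ratio of the highest to the lowest library (log scale) against the mean level in trimmed-mean scaled CPM (log scale) for the 7108 genes of 10 CPM or more at 0 hr, with marker lists coloured and the dashed line at 2-fold. Genes of the neuroblast, type II and INP lists lie under the line, and the peritrophic and mucin genes are at the top left.

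The steadiest abundant genes bound this range from below. CG11267 had 195.1, 194.5 and 195.0 CPM. sesB, the mitochondrial ADP/ATP carrier gene, had 1574, 1580 and 1583 CPM, and Zn72D, an RNA-binding zinc finger gene, 246.9, 246.3 and 247.6 CPM. CG30389 and CG7369 completed the 5, with ratios of 1.006 each.

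Heat shock genes were the most abundant group that varied. Hsp70Ab, an inducible chaperone gene on 3R from 11958535 to 11960909, had 47.9, 72.2 and 1482 CPM, a 31.0-fold range with replicate 3 far above the others. Hsp68 had 14.9, 24.8 and 380.1 CPM with the same order. The 6 Hsp70 genes are near-identical copies, so how the counts were shared among them is uncertain, but replicate 3 was the highest for each. Hsp83, the fly Hsp90, was far less uneven, with 2125, 2119 and 3010 TPM. Hsc70-4 and Hsp60A, which are expressed without stress, did not vary 2-fold.

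Of 18 heat shock genes at 10 CPM or more, 11 varied 2-fold, against 3.69% of all genes read, and replicate 3 was the highest in 13. Without replicate 3, 1 of 18 did, Hsp67Bc. The summed list was 12970, 13410 and 19870 CPM. These brains were labelled as not shifted, yet Hsp70Ab in replicate 3, 1253 TPM, was above its level in each of the 6 shifted libraries, which ran from 54.6 to 339.3 TPM. Hsp26, a small heat shock protein gene, did not follow this order, since its 1590 TPM in replicate 3 was below the 9 hr libraries, at 1850 to 1864 TPM, and the second replicate at 18 hr, at 1684 TPM. Replicates 2 and 3 at 9 hr were the closest pair of the series, with a median chi-square of 0.814. They are therefore not taken as 2 fully separate samples in such ranges. They still differed in some genes, with Prosalpha1 at 537.3 TPM in replicate 2 and 5.364 TPM in replicate 3. Whether the handling of replicate 3 differed was not tested.

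Markers of attached tissues made up a second group. Of all genes read, 3.69% varied 2-fold and 31.7% were lowest in replicate 3. Being lowest in replicate 3 was not particular to attached tissues. It also held for 5 of 5 imaginal disc and eye genes, 5 of 7 muscle genes and 4 of 5 Hox and trunk identity genes. In those 3 lists 1, 1 and 2 genes varied 2-fold. Tracheal genes varied 2-fold in 7 of 9 cases, and replicate 3 was the lowest in 9 of 9. Their summed levels were 444.8, 503.2 and 157.0 CPM. verm had 65.8, 76.1 and 15.05 CPM, and pio, a zona pellucida protein gene of airway matrix, 38.3, 66.1 and 5.83 CPM. Blood cell genes varied in 6 of 7 cases with summed levels of 439.6, 346.5 and 157.6 CPM. Hml had 44.0, 22.9 and 3.53 CPM, and PPO2 66.7, 22.2 and 4.82 CPM, so replicate 1 was the highest and replicate 3 the lowest for both.

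Ring gland genes varied in 4 of 6 cases, with summed levels of 584.1, 726.4 and 368.0 CPM and replicate 3 the lowest in all 6. phm had 108.1, 136.1 and 45.8 CPM. Without replicate 3, 0 of 9 tracheal genes, 2 of 10 blood cell genes and 0 of 7 ring gland genes varied 2-fold. In contrast, the summed neuroblast list was 5753, 5365 and 5662 CPM, and the replicate with low attached-tissue markers was not low in it. Fat body genes varied in 4 of 9 cases, but with replicate 1 the highest for the larval serum proteins. Lsp2 had 31.8, 12.0 and 2.33 CPM. Without replicate 3, 5 of 10 fat body genes varied, and without replicate 1, 0 of 6 did. How much attached tissue each dissection left was not tested.

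**Figure D4:**
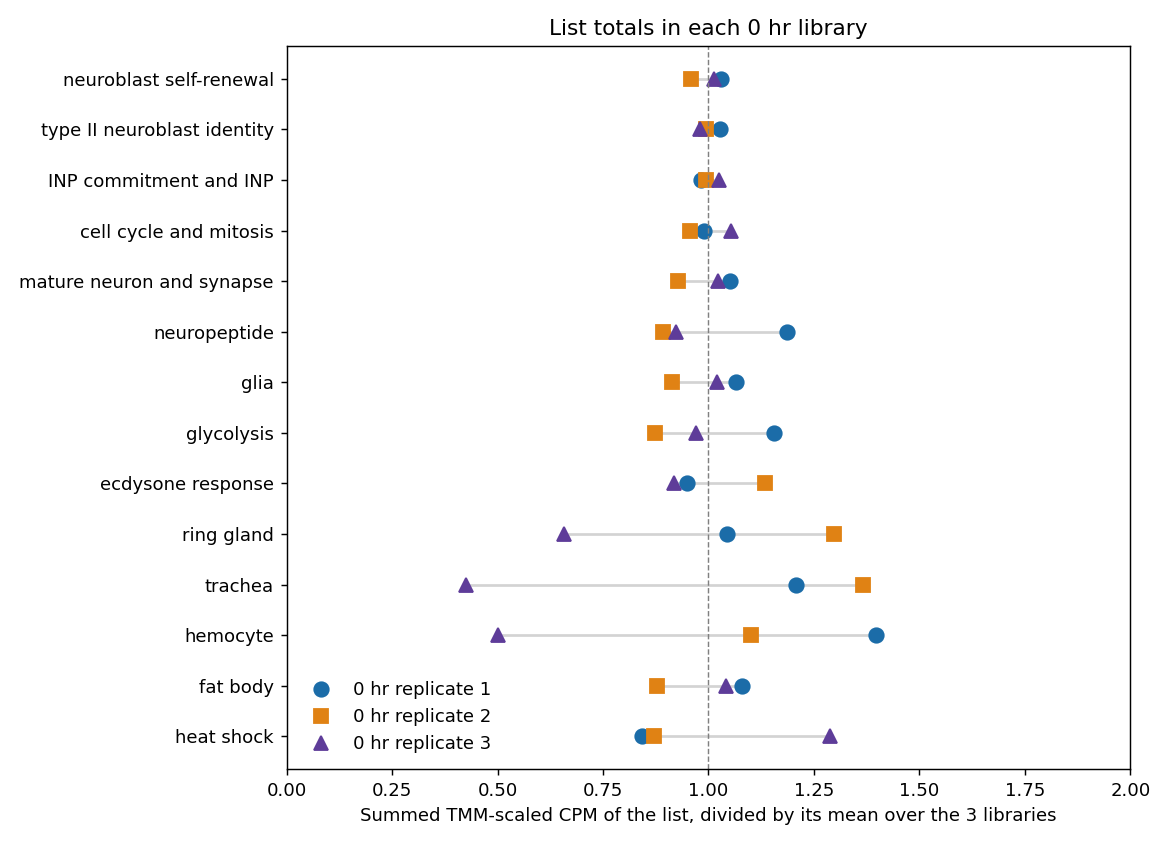
Summed CPM of each gene list in each 0 hr library, divided by the mean of the list over the 3 libraries; the dashed line is the mean. The neuroblast, type II and INP lists lie close to the line, and the neuropeptide list is wider, with 593.9, 447.2 and 462.1 CPM. The tracheal sum of 157.0 CPM in replicate 3 lies far below the 444.8 and 503.2 CPM of the others. The heat shock sum of replicate 3 lies above the line.

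A group of genes belonged to replicate 2. It was gathered after its values were seen, so its counts only describe it. Muc96D, a mucin gene, had 0.378, 290.5 and 0.766 CPM. Peritrophin-15a, which encodes a chitin-binding protein of the peritrophic matrix that lines the gut, had 0, 76.8 and 0 CPM, at least 950-fold higher in replicate 2 at a floor of 3 counts per library. CG34282 had 0.378, 118.0 and 0.219 CPM. The 9 genes of this group, which also hold Muc26B, Peritrophin-15b, CG7017, CG17826, CG14300 and CG43896, summed to 1.396, 791.9 and 1.587 CPM.

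Of the 16 gut genes listed, drm, the only member at 10 CPM or more, was highest in replicate 2 with 19.0, 24.1 and 15.7 CPM. The digestive enzyme genes of that list were near the floor, with Amy-p between 0.362 and 0.390 TPM, so their order says little. Whether gut tissue was in that library was not tested. The unnamed genes CG31717 and CG5084 were likewise seen in replicate 2, with 0.116, 33.5 and 0.0274 CPM and with 0, 49.1 and 0 CPM. Among the shifted libraries, the third replicate at 18 hr had Muc96D at 43.2 TPM and CG34282 at 52.4 TPM, while the others were at 0.823 TPM or less and at 2.24 TPM or less. For these 2 genes, 2 of the 9 libraries held nearly all of the signal.

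Ecdysone-responsive genes leaned towards replicate 2. This list, too, was chosen with the values known, so its counts only describe it. ImpE2, an ecdysone-induced gene of imaginal discs, had 88.8, 321.2 and 17.6 CPM. Hr4, a nuclear receptor gene of the ecdysone cascade, had 57.6, 200.2 and 83.1 CPM. Of 19 genes at 10 CPM or more 6 varied 2-fold, against 3.69% of all genes read, and replicate 2 was the highest in 14, against 31.8% of all genes read. EcR and usp, the receptor pair, did not vary 2-fold, with EcR at 19.4, 15.5 and 17.9 TPM and usp at 46.5, 46.4 and 44.4 TPM. Without replicate 2, 1 of 18 varied. The hormone synthesis genes phm, sad and spok were also highest in replicate 2. Whether that bears on the response genes was not tested.

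**Figure D5:**
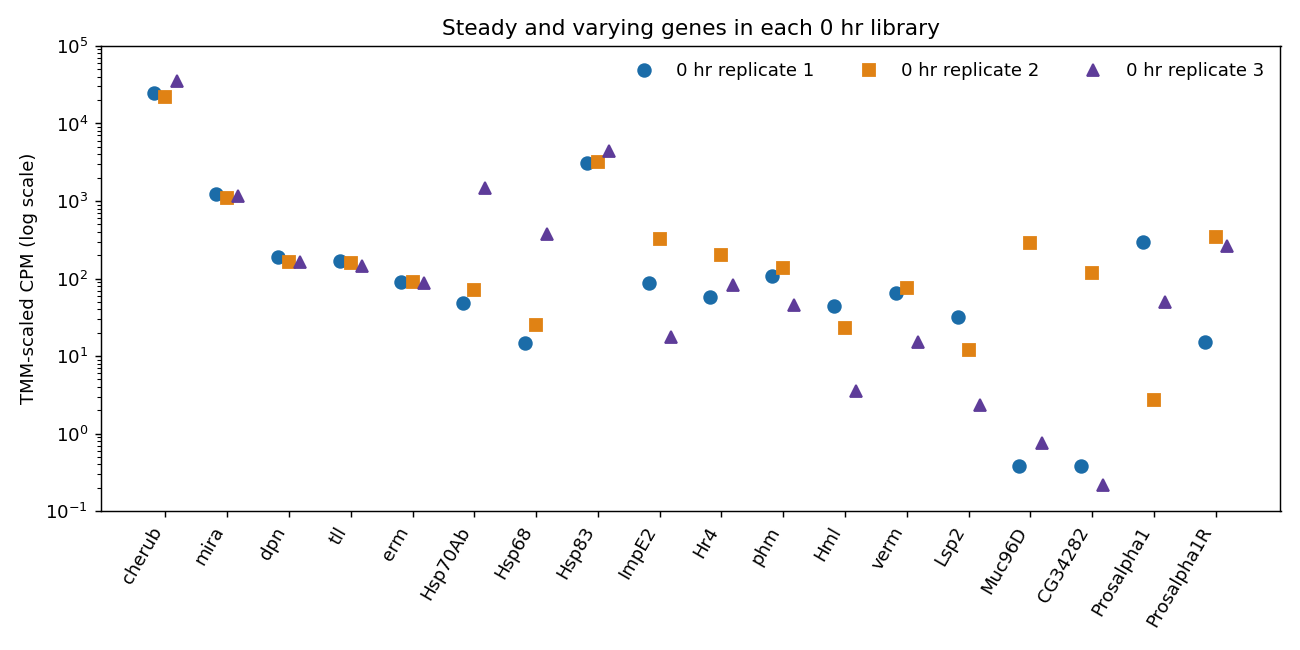
CPM (log scale, trimmed-mean scaled) of named steady and varying genes in each of the 3 replicates at 0 hr, 1 point per library. The points of mira, dpn, tll and erm lie together, while Hsp70Ab reaches 1482 CPM only in replicate 3 and Muc96D 290.5 CPM only in replicate 2.

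Some of the largest ratios came from genes with a close copy or a shared transcript. Prosalpha1, a proteasome subunit gene, had 294.0, 2.70 and 49.8 CPM, while its copy Prosalpha1R, listed as CG30382, had 15.1, 339.7 and 266.1 CPM. Their sum was 309.1, 342.4 and 315.9 CPM, a 1.11-fold range. The pair shared a nearly constant total that was split differently in each library. fdy, a Y-linked copy of vig2, had 0, 0 and 110.4 CPM, while vig2 had 724.1, 674.8 and 704.6 CPM. In replicate 3 vig2 lay between its other values, and the sum of the 2 genes was 724.1, 674.8 and 815.0 CPM. No such split of a total was thus seen for fdy. These 2 pairs were chosen after their values were seen.

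Genes that share exons with a neighbour were read with that neighbour. CG33713 and CG33714 summed to 166.1, 161.5 and 157.8 CPM although each varied by more than 4-fold. CG30100 had 23.3, 24.1 and 0.547 CPM, and its sum with CG42372 was 23.4, 24.1 and 23.2 CPM. CG32152, which lies wholly within exons of CG5151, had 0, 28.9 and 34.4 CPM, and the sum of the pair was 207.7, 213.3 and 213.4 CPM. A sum with a far more abundant partner, as in this pair, can vary little whatever the smaller gene does. Of 41 overlapping pairs, 27 had a sum that varied under 2-fold. Sums that varied more included Ent2 with CG13766, at 8.79-fold, and Hsp22 with Hsp67Bb, at 4.89-fold. In 6 of the 41 pairs both genes varied 2-fold, and all 6 sums varied under 2-fold. An overlap of at least 10% of exon length was found in 18.3% of varying genes and 15.04% of all genes read.

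Other genes switched between libraries without such an overlap in the annotation. NO66, listed as CG2982, a histone demethylase gene, had 117.5, 0.472 and 136.1 CPM. CG15747 had 0.0872, 48.7 and 52.1 CPM. vvl, a POU factor gene, had 16.1, 226.6 and 212.9 CPM. Sdic3, of a cluster of near-identical dynein chain genes, had 0, 0 and 41.6 CPM, and CG40439 had 0, 0 and 59.7 CPM. In each of these 5 genes 2 libraries were alike and the third stood far apart. Among the 9 hr libraries NO66 varied 224-fold, and among those at 18 hr 1.11-fold. NO66 and vvl are given here because of their values and not by the naming rule.

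The genes that varied at 0 hr also tended to vary among replicates of the shifted groups, which the rule had not used. Of the 237 that also reached 10 CPM at 18 hr, 153 (64.6%) varied 2-fold there, against 124 of 6787 other genes (1.83%). At 9 hr the figures were 59 of 213 (27.7%) and 52 of 6774 (0.768%), with 2 of the 3 libraries the closest pair of the series. The overall coefficient of variation was 0.229 among the 18 hr libraries and 0.138 among those at 9 hr, against 0.209 at 0 hr.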

How the data were processed

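RNA of whole brat-null larval brains was read from 1 deposited table of raw counts per gene and library, in which all 9 count columns matched a sample and 0 did not. Per the submitters' processing notes and the study's methods, the authors checked reads with FastQC 0.11.3, aligned them to dm6 with HISAT2 2.1.0, quantified them with StringTie 1.3.4 and tested with DESeq2 1.20.0. The annotation version and the use of strand in counting were not given in the sources used here, so overlapping and antisense genes cannot be separated.

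TPM were computed as counts over merged exon length. CPM were scaled by the trimmed mean of M values over the 3 libraries at 0 hr with edgeR 4.0.16 in R 4.3.3, which also estimated dispersion after its expression filter. The dispersion step was tested on simulated data. A gene was called expressed at 1 TPM in all 3 libraries, and varying at a mean of 10 CPM with a 2-fold range. A library at 0 was set to a floor of 3 counts for a ratio. Total counts per library were between 29389923 and 37109356.

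Named genes were the 20 most abundant, leading members and defining markers of each list, the leading member of each silent family, the 15 widest and 5 narrowest ratios, and brat, insb and w, from which the text gives a selection. Members and lists were chosen with earlier results of these data known. Alternatives were other length, level and fold limits, other scaling, and leaving out each replicate. The ecdysone and peritrophic lists and the near-identical pairs were added after the data were seen. Promoter motifs were planned and not analysed here, because no genome sequence was used.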

Additional observations from a re-analysis of the deposited data

How the results depend on the processing

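The count of expressed genes, 9132, was 9104 with the longest transcript as length, 8743 at 1 CPM, 7578 at 5 TPM and 9222 to 9400 with a replicate left out. Genes at 0 counts numbered 948, and 3768 when up to 10 counts were allowed in each library, and 1234 to 1516 with a replicate left out, where fewer libraries had to be at 0. The 100 most abundant genes held 24.5% of counts on average and 39.5% of TPM. Of the 262 varying genes the number became 571 at 1.5-fold, 129 at 3-fold, 852 at a mean of 1 CPM, 70 at 50 CPM, 263 with RLE scaling and 270 with none. With a replicate left out it was 118 to 195, lowest without replicate 3. The coefficient of variation, 0.209, was 0.307 without the expression filter and 0.174 to 0.241 with a replicate left out. Marker list genes at 1 TPM numbered 338 of 418, and 339 to 352 under the alternatives. The glue list went from 1 to 3 without replicate 3. No paired analysis was possible because no groups were compared. Depth limits statements on genes near 0 counts, and groups of 3 are too small for a test of outlying samples.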

Other observations

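Chromosome 4 stood apart in level. Of its 102 listed genes, 87.3% reached 1 TPM in all 3 libraries and 0% had 0 counts in all 3. On the other arms, 57.8% (2L) to 67.3% (X) of genes reached 1 TPM and 4.98% to 8.41% had 0 counts. The median of the expressed genes was 56.0 TPM on chromosome 4 and 31.7 to 34.0 TPM on the others. No test was run on this difference.

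Among non-coding genes, 352 of 1616 reached 1 TPM in all 3 libraries. After pncr002:3R and cherub the highest were CR45242 with 808.0, 872.2 and 1052 TPM and CR40469 with 935.6, 895.5 and 846.1 TPM. roX1, an RNA of the male dosage compensation complex, had 62.2, 50.6 and 54.1 TPM. Of 251 snoRNA genes, 144 reached 1 TPM although the libraries were made from poly-A RNA, and the 251 held 0.00731% to 0.00846% of the counts. These genes are short, so few counts are enough for 1 TPM. snoRNA:Me28S-G2703c, of 85 exon bases, had 37.59 TPM in replicate 1 from 54 counts. The host genes Uhg1 to Uhg5 had means of 60.1 to 172.5 TPM.

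Glycolysis genes were highest in replicate 1 in 9 of 12 cases and lowest in replicate 2 in 8, against 28.4% and 34.5% of all genes at 10 CPM or more, with summed levels of 4548, 3441 and 3821 CPM, and none varied 2-fold. Gapdh2 had 1143, 850.0 and 980.3 TPM. The ribosomal protein gene RpS28b had 735.3, 1618 and 1642 CPM. Of the 85 cytosolic ribosomal protein genes at 10 CPM or more it alone varied 2-fold, which 3.69% of all genes at that level did. The ionotropic receptor gene Ir8a had 0.0421, 9.07 and 6.58 TPM. These genes were chosen after their values were seen, apart from Gapdh2.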
